A study of Homo sapiens with 4 samples.

Results

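Readthrough genes and their parent genes were examined in RNA-seq libraries of HaCaT, an immortalized human keratinocyte line. A readthrough gene is annotated under a joined symbol, A-B, and runs from an upstream gene A into its downstream neighbour B. Members were all rows whose symbol had this form and whose A and B were also rows of the same table on the same chromosome and strand. The rule gave 127 readthrough genes among 44591 annotated genes, with 251 parent genes, because PRH1, BLOC1S5 and RAB4B each belonged to 2 pairs. One further joined symbol, BORCS7-ASMT, had parents on different chromosomes and was not a member.

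The study sequenced total RNA from 4 biological replicates of untreated HaCaT cells, which formed 1 group with no comparison group. The cells were kept in Dulbecco's modified Eagle medium with fetal bovine serum, and RNA was extracted with Trizol and treated with DNase I. Nothing in the labels set the replicates apart. Each of 10 keratinocyte markers (KRT5, KRT14, KRT6A, KRT17, TP63, DSG3, DSP, JUP, ITGA6 and LAMA3) had at least 1989 counts in each replicate.

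A readthrough transcript arises when RNA polymerase II passes the polyadenylation site of one gene and transcribes into the next. Splicing then usually skips the terminal exon of the upstream gene, with its polyadenylation site, and the first exon of the downstream gene, which often carries no splice acceptor. The joined RNA may encode a fusion of both proteins, may encode the upstream protein with another end, or may be degraded because of an early stop codon. Almost all of its exons are also exons of the parents, so that most short reads of a readthrough RNA are also compatible with a parent, and the reads across the joining junction are the ones that belong to it alone.

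The junctions of 5 of the 12 readthrough genes with the highest mean TPM are shown, because those bases distinguish the joined RNA from each parent. The sequences are from GENCODE 29 transcripts on GRCh38 and show 15 bases on each side of a junction, 5′ to 3′. Capitals mark the first 15 bases of the exon of the downstream parent. In NME1-NME2 the junction joined chr17:51161272 to chr17:51166827 on the plus strand.
NME1: catacaagttggcaggaacattatacatgg
NME1-NME2: catacaagttggcagGACCATGGCCAACCT
NME2: gcactttagtgccagGACCATGGCCAACCT
In RPL17-C18orf32 it joined chr18:49489359 to chr18:49483771 on the minus strand.
RPL17: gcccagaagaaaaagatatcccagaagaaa
RPL17-C18orf32: gcccagaagaaaaagTTGAGGAGCTCAAGC
C18orf32: tttccgcggtcgcggTTGAGGAGCTCAAGC
In RPS10-NUDT3 it joined chr6:34418369 to chr6:34295685 on the minus strand.
RPS10: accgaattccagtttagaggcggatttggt
RPS10-NUDT3: accgaattccagtttGCTGGAGTAAAAGGG
NUDT3: gaagtctgtgaggagGCTGGAGTAAAAGGG
In RPL36A-HNRNPH2 it joined chrX:101395457 to chrX:101411936 on the plus strand.
RPL36A: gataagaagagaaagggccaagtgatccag
RPL36A-HNRNPH2: gataagaagagaaagCTACACCAAAATTGC
HNRNPH2: ccggtatcgttagagCTACACCAAAATTGC
In TMX2-CTNND1 it joined chr11:57737668 to chr11:57789037 on the plus strand.
TMX2: agaaccgcagatccatcactgtggagcaac
TMX2-CTNND1: agaaccgcagatccaCTCTCTCCTTCCTGC
CTNND1: ctctggatggctctgCTCTCTCCTTCCTGC
In each set the joined RNA shared its first 15 bases with the upstream parent and its last 15 bases with the downstream parent.

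All 3 symbols were found in GENCODE 29 for 103 pairs, and 68 of these had a readthrough transcript with a junction whose ends were both used by a parent transcript. The junction left the next-to-last exon of A in 44 of the 68, entered the second exon of B in 59, and did both in 40. It lay in the coding sequence in 55. The annotated transcript with that junction was protein-coding in 52 pairs, was marked for nonsense-mediated decay in 13 and retained an intron in 3. The spliced intron had a median of 21034 bases. By this geometry the readthrough RNA left out much of A and little of B, with a median of 1147 bases of A after the junction (59.1% of the A transcript) and 229.5 bases of B before it (13.1%). A had more bases outside the readthrough transcript than B in 60 of the 68 pairs.

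The files, for which the submitters' processing notes name the hg19 build, placed the 127 readthrough genes on 23 chromosomes, 70 on the plus and 57 on the minus strand. The parents did not overlap in 122 pairs. Between them lay a median of 7498 bases, under 10000 bases in 74 pairs and up to 273723 bases for ZNF664-RFLNA. A readthrough gene began within 100 bases of the start of A in 97 pairs and ended within 100 bases of the end of B in 113. The files typed 77 as protein-coding, 49 as lncRNA and 1 as misc_RNA. Their lengths had a median of 2650 bases, against 2477 for upstream and 2249 for downstream parents. In 35 pairs no other gene overlapped any of the 3 genes on either strand. Strand was not stated for the counting, so in the other pairs reads of an overlapping gene cannot be told apart from those of a member.

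Replicate 1 stood apart from the other libraries before any member was considered. It held 73082279 counts, and the other libraries held 17056035, 19745170 and 19083836. Of its counts 76.1% fell on protein-coding genes, against 95.3% to 96.4%, and 31.0% of its TPM (counts divided by gene length and scaled to 1000000 per library), against 87.4% to 93.0%. A TPM in replicate 1 is therefore lower than in the other libraries for protein-coding genes as a class, with a median over them of 1.87 TPM against 3.87 to 6.55. Most results below are given by replicate or with and without replicate 1. A mean TPM includes replicate 1 unless stated otherwise.

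Despite its depth, replicate 1 held almost no counts on readthrough genes. The 127 genes summed to 1878 counts in replicate 1 and to 128419, 175045 and 135354 counts in replicates 2, 3 and 4. These were 0.00257% of all counts in replicate 1 and 0.753%, 0.887% and 0.709% in the other replicates. The replicate with the most counts thus had the fewest on readthrough genes, and it lay far outside the range of the other libraries. More than 3 counts were found for 64 genes in replicate 1 and for 117, 118 and 117 genes in the others, while 47, 5, 9 and 8 genes were at 0 counts. The same shares of all genes by single replicate are not given here. Over all genes, 34.7% had more than 3 counts in 4 of 4 replicates and 36.8% in each of replicates 2 to 4. The highest TPM of any readthrough gene was 2.22 in replicate 1 and 697, 904 and 498 in replicates 2 to 4. In bulk RNA, fewer cells with a transcript and less of it per cell cannot be told apart. Nor can either be told apart here from a difference in the library or in the assignment of shared reads, which was not tested.

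Only counts per gene were available, without those across the joining junction, so the levels here need not be those of joined RNA. Readthrough genes had high levels in replicates 2 to 4, with a median TPM over them of 14.3, 12.2 and 13.6, and of 0.0120 in replicate 1. Their mean TPM over the 4 replicates was above 1 in 110 of 127 genes (86.6%), while 34.5% of all genes and 61.7% of protein-coding genes passed the same limit. It was above 10 in 63 and above 100 in 10. Its median over the 127 genes was 9.94, against 0.122 over all genes. More than 3 counts in 4 of 4 replicates were found for 64 members (50.4%), beside 34.7% of all genes, and in each of replicates 2 to 4 for 116 (91.3%), beside 36.8%. Leaving out replicate 1 thus moved the share of members far more than that of all genes. Nearest the limit of 1 TPM were KCNK4-TEX40 (1.47) and ZNF816-ZNF321P (1.11) above it, and FPGT-TNNI3K (0.677) and SLX1B-SULT1A4 (0.575) below it. ACBD7-DCLRE1CP1, CCL15-CCL14, EPPIN-WFDC6 and GIMAP1-GIMAP5 were at 0 in all 4 replicates. By the type in the files, 66 of 77 protein-coding and 43 of 49 lncRNA members had a mean TPM above 1.

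Among the members with the highest TPM was NME1-NME2 (hg19 chr17:49230897-49249105, plus strand), whose parents encode nucleoside diphosphate kinases of closely similar sequence. From replicate 1 to 4 its TPM was 0.148, 697, 904 and 482, which averaged 521 ± 387 (SD, n = 4), or 694 ± 211 without replicate 1. NME1 had 30.5, 308, 384 and 172 TPM. NME2 had 25.3, 919, 1170 and 678 TPM. The readthrough gene thus lay below both parents in replicate 1 and between them in the other 3. Because NME1 and NME2 are similar copies, the division of reads between them is uncertain.

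SENP3-EIF4A1 (hg19 chr17:7465309-7482324, plus strand) joins a SUMO protease of the nucleolus to EIF4A1, the RNA helicase of cap-dependent translation. Its TPM was 0.45, 567, 782 and 498, which averaged 462 ± 331 (SD, n = 4), or 616 ± 148 without replicate 1. In counts, it had 152, 18319, 34613 and 17157. EIF4A1 had 0, 16830, 32148 and 15611 counts, and SENP3 had 619, 1663, 2646 and 1731. In replicates 2 to 4 the readthrough gene therefore had slightly more counts than EIF4A1, and EIF4A1, a gene that growing cells use, was at 0 in the deepest library. The readthrough gene took 19.7% of the counts of the 3 genes in replicate 1 (95% Clopper-Pearson interval 17.0 to 22.7) and 49.8%, 49.9% and 49.7% in the others.

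A few members with a high TPM began in a ribosomal protein gene. RPL17-C18orf32 (hg19 chr18:47007548-47018935, minus strand) had 0.0497, 468, 602 and 417 TPM, RPS10-NUDT3 (hg19 chr6:34254971-34393902, minus strand) 0, 384, 448 and 282 TPM, and RPL36A-HNRNPH2 (hg19 chrX:100645878-100669128, plus strand) 0.00958, 222, 319 and 224 TPM. In each of them replicate 1 was far below the other libraries. RPS10, a protein of the small ribosomal subunit, had 9531, 7941, 14606 and 6777 counts, while RPS10-NUDT3 had 0, 7291, 11656 and 5722. NUDT3, a hydrolase of inositol pyrophosphates, had 492, 429, 602 and 672 counts. For depth and the share of protein-coding reads, counts were divided by the library's protein-coding counts and multiplied by 1000000 (coding CPM). On this scale RPS10 had 171, 489, 773 and 369, and RPL17, of the large subunit, had 349, 571, 897 and 521. RPS10-NUDT3 had 0, 449, 617 and 311 coding CPM, and RPL17-C18orf32 had 0.144, 443, 671 and 372. Both upstream parents were thus also lowest in replicate 1, by far less than the readthrough genes. Processed pseudogenes copy these ribosomal protein genes, so their counts are uncertain.

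TMX2-CTNND1 (hg19 chr11:57479995-57586652, plus strand) joins TMX2, a thioredoxin-related protein of the endoplasmic reticulum, to CTNND1, the p120 catenin that holds cadherins at the membrane of epithelial cells. Its TPM was 0.00611, 247, 120 and 255, and its counts were 3, 11574, 7686 and 12755. CTNND1 had 5470, 12049, 7761 and 13341 counts. In replicates 2 to 4 the 2 counts followed each other from library to library, within 5% of one another. In coding CPM, CTNND1 had 98.4, 741, 411 and 726, and TMX2 had 166, 139, 191 and 118. TMX2 in replicate 1 thus lay within the range of the other libraries, and CTNND1 lay below it.

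**Figure D1:**
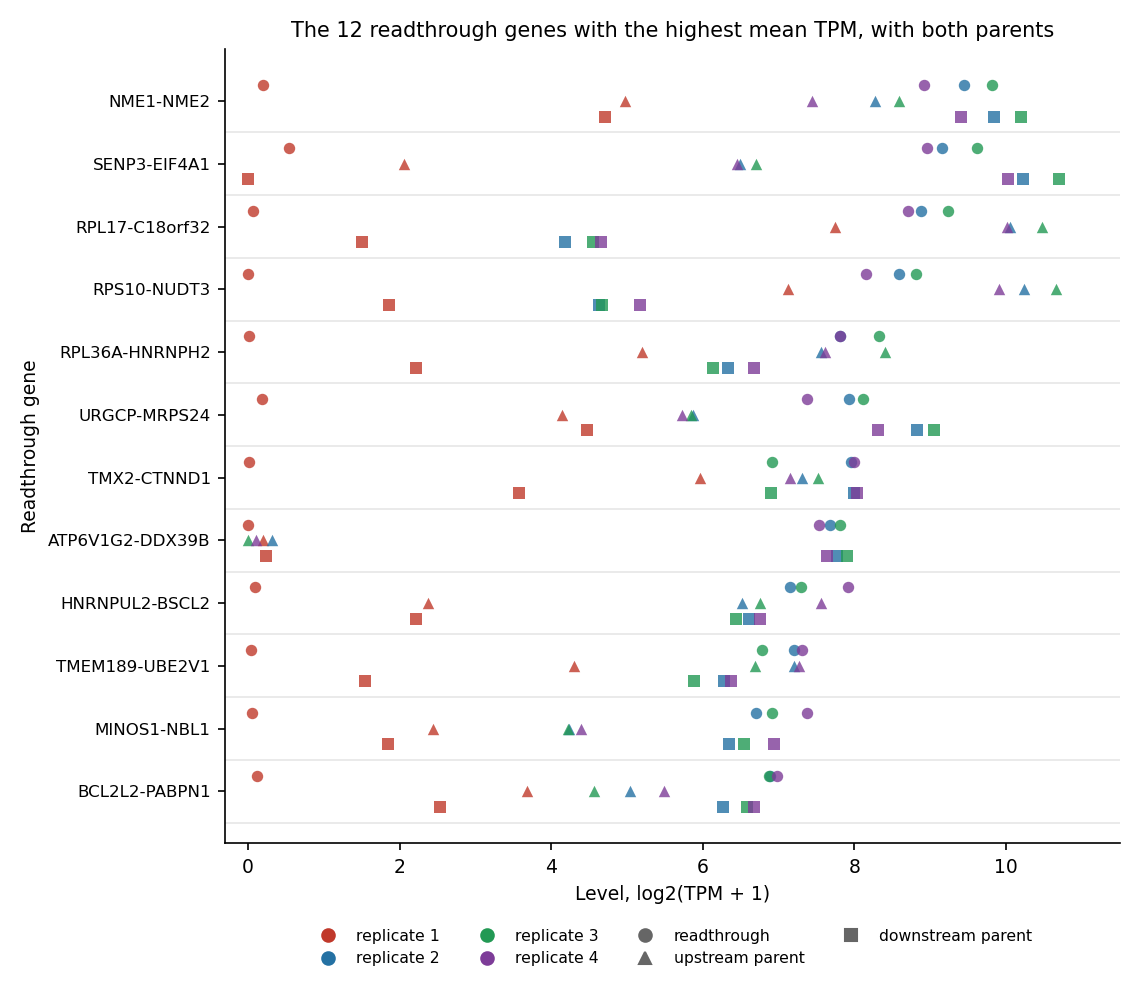
Level as log2(TPM + 1) of the 12 readthrough genes with the highest mean TPM (circles) and of their upstream (triangles) and downstream parents (squares), with 1 colour per replicate. In each of the 12, the circle of replicate 1 lies below 1 on this scale, and those of replicates 2 to 4 lie above 6.

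Counts on readthrough genes were then compared with counts on the parents within each replicate. Among pairs with at least 100 counts of the 3 genes together (101, 109, 107 and 109 pairs in replicates 1 to 4), the count of A-B was a median of 0.323% of the summed count of A and B in replicate 1 and 63.8%, 67.7% and 64.0% in replicates 2, 3 and 4. It was a median of 0.340% of the count of the higher parent in replicate 1 and 85.1%, 83.8% and 83.1% in the others. In replicates 2 to 4, then, a typical readthrough gene was counted almost as often as its more abundant parent. Under 5% of the parents' sum was found for 87 pairs in replicate 1 and for 3, 4 and 3 pairs in the others, and at least 50% for 1, 71, 70 and 68 pairs. In total, the counts on readthrough genes were 0.772%, 67.7%, 67.2% and 65.9% of the counts on their parents.

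**Figure D2:**
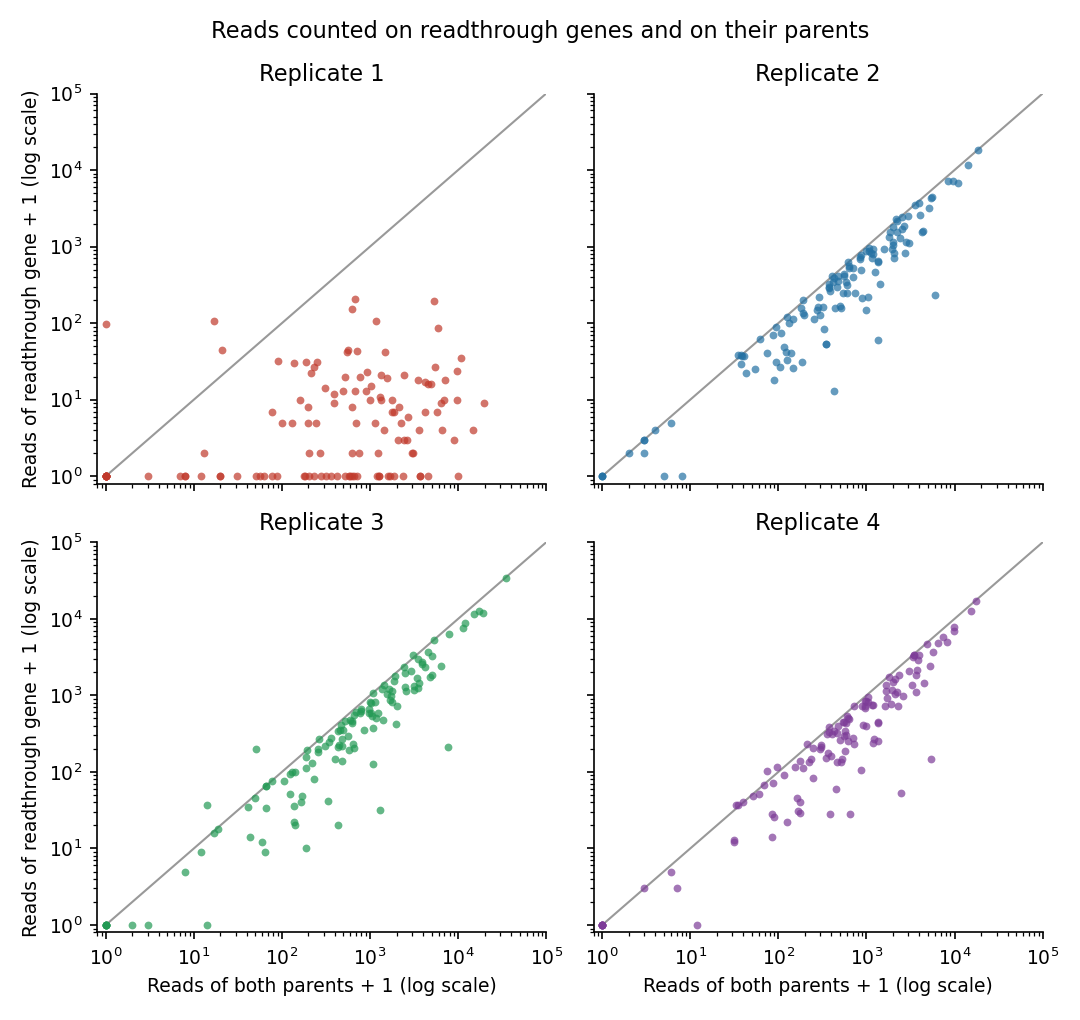
Counts of each of the 127 readthrough genes against the summed counts of both parents, both with 1 added and on log axes, with 1 panel per replicate and a line of equal counts. Most points of replicates 2 to 4 run along and just under the line, and those of replicate 1 lie far below it for all but a few pairs.

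In 8 members the count of A-B was within 5% of the higher parent in each of replicates 2 to 4. These were ANKHD1-EIF4EBP3, ATP6V1G2-DDX39B, C8orf44-SGK3, HSPB2-C11orf52, IQCJ-SCHIP1, PALM2-AKAP2, TMEM256-PLSCR3 and TMX2-CTNND1, named for this property after their values were seen. The higher parent was the downstream one in all but ANKHD1-EIF4EBP3. HSPB2-C11orf52 had the same count as C11orf52 in every library, 0, 61, 76 and 67, and HSPB2, a small heat shock protein of muscle, had 0 counts in all 4. IQCJ-SCHIP1 had 0, 619, 1077 and 726 counts beside 7, 621, 1080 and 727 for SCHIP1, while IQCJ had none. ATP6V1G2-DDX39B (hg19 chr6:31497996-31514625, minus strand) had 0, 3510, 5274 and 3412 counts, beside 31, 3520, 5293 and 3427 for DDX39B, a helicase of splicing and mRNA export. Its upstream parent ATP6V1G2, a subunit of the proton pump of vesicles that is known from brain, had 19, 3, 0 and 1. In these 3 pairs, the readthrough gene was counted at the level of B where A had next to no counts of its own. How the counter treated reads that fit both A-B and a parent is not given in the sources used here, and its part in these values was not tested.

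Length-corrected levels gave the same picture. Over all 127 pairs, undetected ones included, the median of log2(TPM + 1) of A-B minus that of A was −1.40, 0.08, 0 and 0 in replicates 1 to 4. That of A-B minus B was −0.24, 0.10, 0.06 and 0.08. As a mean over replicates these were −0.33 ± 0.71 and −0.00 ± 0.16 (SD, n = 4), or 0.03 ± 0.04 and 0.08 ± 0.02 without replicate 1 (n = 3), so the sign of both rested on that library. The share of A-B in the length-corrected reads of the 3 genes was taken over the 115 pairs with more than 3 counts of them in each replicate. Its median was 0.280% in replicate 1 and 33.8%, 32.9% and 34.5% in the others, a mean of 25.4 ± 16.7%, or 33.7 ± 0.766% without replicate 1. In a two-sided exact sign-flip permutation test 2 of the 16 sign assignments of 4 replicates are as extreme as a pair with one direction throughout, so no single pair could pass a threshold of 0.05, and directions are given as numbers of replicates.

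Of 115 pairs with more than 3 counts of the 3 genes in each replicate, the readthrough gene lay below both parents in 78 in replicate 1 and in 5, 8 and 10 in the others. It lay between them in 25, 85, 85 and 81 pairs. ATP5J2-PTCD1 and POC1B-GALNT4 were below both parents in 4 of 4 replicates. No member with more than 3 counts was above both parents in 4 of 4, and 16 were so in each of replicates 2 to 4, among them BCL2L2-PABPN1, HNRNPUL2-BSCL2, MINOS1-NBL1, RBM14-RBM4 and SYS1-DBNDD2. RBM14-RBM4 joins a pair of RNA-binding proteins of splicing. It had 0.0237, 132, 111 and 111 TPM, against 4.94, 56.6, 41.3 and 60.0 for RBM14 and 13.6, 67.2, 63.1 and 56.3 for RBM4. Its annotated length, 1614 bases, is shorter than those of RBM14 (5415) and RBM4 (4228), and in counts it had 36.2%, 36.4% and 31.9% of its parents' sum in replicates 2 to 4. Its place above both parents was thus on the scale per length.

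Members were also grouped into 5 lists by what a parent encodes, and not every entry has a parent of its list's function. Over all 127 members 86.6% had a mean TPM above 1, beside 34.5% of all genes. The counts per list are to be read beside these shares. Of 12 on the list for ribosome, translation or RNA binding, 10 had a mean TPM above 1. The median over the list was 89.0, and the median over all 127 was 9.94. The list also holds PMF1-BGLAP, EPPIN-WFDC6 and ZNF559-ZNF177, whose parents encode other kinds of protein. Its values thus describe the list and not a functional class. Besides those above, URGCP-MRPS24, which ends in a protein of the mitochondrial ribosome, had 0.137, 244, 277 and 164 TPM. BCL2L2-PABPN1, which joins an antiapoptotic BCL2 relative to the nuclear poly(A)-binding protein, had 0.0897, 117, 116 and 125 TPM, against 4.81, 76.2, 95.1 and 101 for PABPN1. The list was the highest of the 5 by its median, and it holds 8 members with more than 3 counts in 4 of 4 replicates.

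Of 11 members on the list for mitochondria or metabolism, 10 had a mean TPM above 1 (median 20.03). NDUFC2-KCTD14 begins in a subunit of respiratory complex I and had 1, 1815, 2954 and 1374 counts. NDUFC2 had 3086, 2010, 3489 and 1653, and KCTD14 had 0, 17, 43 and 17. Here A-B was counted at the level of A, the abundant parent, in replicates 2 to 4. TMEM256-PLSCR3 ends in a phospholipid scramblase, and had 0.0124, 102, 57.2 and 89.8 TPM. CHURC1-FNTB ends in the beta subunit of protein farnesyltransferase, and had 0.0704, 37.3, 35.3 and 32.5 TPM. CHURC1, its upstream parent, had 71.2, 29.7, 34.9 and 25.2 coding CPM.

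All 9 members of the list for ubiquitin, chromatin and DNA repair passed 1 TPM (median 17.9). TMEM189-UBE2V1 joins a desaturase of plasmalogen synthesis to a ubiquitin-conjugating enzyme variant, and had 0.0262, 146, 109 and 158 TPM. RNF103-CHMP3 joins a ubiquitin ligase to an ESCRT-III subunit of membrane scission. It had 2, 1331, 1973 and 1827 counts, and CHMP3 had 773, 1463, 2156 and 1964. PPAN-P2RY11, which the list also holds, joins parents outside these pathways, a ribosome assembly factor and a receptor for extracellular ATP. It had 4, 874, 1539 and 838 counts, against 195, 742, 1660 and 803 for PPAN and 0, 251, 224 and 197 for P2RY11. INO80B-WBP1, which begins in a subunit of the INO80 chromatin remodeller, had 0, 550, 808 and 814 counts. In all 4 of these genes the lowest count was that of replicate 1.

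Of 8 members on the list for cell surface, cytokine or immune genes, 6 passed 1 TPM (median 14.96). LY75-CD302 and KLRC4-KLRK1, with genes of dendritic and natural killer cell receptors, did not. TNFAIP8L2-SCNM1 had 0, 683, 803 and 449 counts, beside 0, 5, 4 and 2 for TNFAIP8L2, an inhibitor of immune cell activation, and 576, 830, 1025 and 550 for SCNM1, a splicing factor. An immune gene was thus named in the symbol of a member counted near the level of its splicing parent. CKLF-CMTM1, which joins a chemokine-like factor to a relative, had 0.0573, 43.7, 29.7 and 36.7 TPM. TMED7-TICAM2, which ends in an adaptor of Toll-like receptor signalling, had 26, 630, 809 and 918 counts, and TICAM2 had 7, 89, 98 and 160. DNAJC25-GNG10, which ends in a G protein gamma subunit, had 0, 22.1, 32.5 and 33.5 TPM.

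All 13 members on the list for cytoskeleton, adhesion or trafficking passed 1 TPM (median 28.2), led by TMX2-CTNND1. BLOC1S5-TXNDC5, which ends in a protein disulfide isomerase, had 1, 2526, 3710 and 3399 counts, and TXNDC5 had 251, 2826, 4373 and 3694. ARL2-SNX15 joins a small GTPase of tubulin folding to a sorting nexin. It had 1, 1036, 1123 and 1094 counts, with 2998, 1596, 2003 and 1579 for ARL2 and 0, 385, 530 and 652 for SNX15. The remaining 74 pairs, in no list, had a median of 5.80 TPM, and 62 of them passed 1 TPM.

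Parents differed from replicate 1 to the others by their place. Among 115 pairs, A had a higher TPM than B in 84 in replicate 1 and in 61, 64 and 65 in the others, while among 15654 pairs of neighbouring protein-coding genes on one strand the upstream gene was the higher in 50.4%, 50.1%, 50.2% and 50.3% of pairs in replicates 1 to 4. A was above B in 4 of 4 replicates in 56 pairs, 48.7%, beside 43% of the neighbours, and in each of replicates 2 to 4 in 58 of 118, beside 46.3%. It was above B in replicate 1 and below it in each of the other 3 in 19 pairs, an order found in 3.35% of the neighbours, and the opposite exchange occurred in 1 pair. Downstream parents at 0 counts in replicate 1 and at 20 or more in each of the others were SNX15, C11orf52, TEX40, RAB4B, SAPCD1, KLHL23, P2RY11, EIF4A1 and CDK3. Upstream parents of this kind were RAB4B, which is also a downstream parent, and TEN1. The share of all genes that meet this rule is not given here, so these names are a description only.

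To set replicate 1 beside the others with its excess of counts outside protein-coding genes removed, levels were compared in coding CPM, and a gene was called low in replicate 1 when it lay more than 10-fold under the lowest other replicate. Among all 14674 genes with a mean of at least 1 on this scale, 5.94% were called. Among readthrough genes 98 of 111 were called (88.3%), with a median log2 ratio of replicate 1 to the mean of the others of −6.82. All readthrough genes together had 33.8 coding CPM in replicate 1, so they passed the limit on the mean almost only through replicates 2 to 4. That limit thus favours the call for them. It also favours the call for any parent with few counts in replicate 1. Downstream parents were called in 42 of 95 (44.2%, median −3.28), and upstream parents in 10 of 101 (9.90%, median −0.55). Of protein-coding genes outside the pairs, 305 of 12113 were called (2.52%, median 0.05). Among genes that passed the limit, members were thus lowest, downstream parents next and upstream parents nearest to other genes. Among these other protein-coding genes, 3.84% of the 2032 that overlapped a gene of the same strand were called, and 2.25% of the 10081 that did not. How many exons such genes share was not measured. The rule left out other genes described as readthrough in the files. Of 15 such genes with a mean of at least 1 coding CPM, 10 were called (median −6.17).

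**Figure D3:**
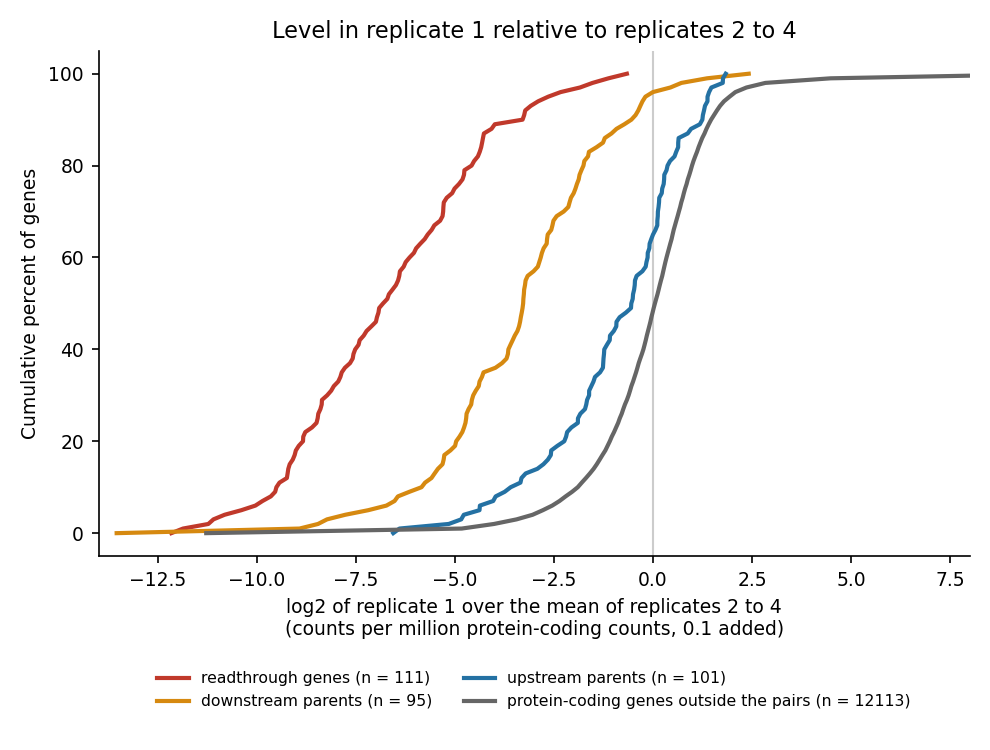
Cumulative percent of genes (y) by the log2 ratio of replicate 1 to the mean of replicates 2 to 4 (x), in coding CPM with 0.1 added. Readthrough genes, downstream parents, upstream parents and other protein-coding genes are shown, each with a mean of at least 1 coding CPM. The curves cross 50% at −6.82, −3.28, −0.55 and 0.05.

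The summed counts of the parents exceeded those of replicate 1 in the other libraries by about the counts of the readthrough genes. In coding CPM, A and B together, summed over the 127 pairs, had 4374 in replicate 1 and 11666, 13797 and 11169 in replicates 2, 3 and 4. The readthrough genes had 33.8, 7903, 9268 and 7361. With the count of A-B taken from that of A and B, the sums were 4341, 3763, 4529 and 3808, so that replicate 1 lay within the range of the other libraries. By pair, over the 96 pairs with at least 100 counts in each replicate, A and B together in replicate 1 were at a median log2 ratio of −1.31 to A and B in the others (quartiles −2.12 and −0.42), and at 0.25 to A and B less A-B (quartiles −0.54 and 0.90). The ratio was within 1 log2 unit of 0 in 29 pairs before and in 63 after the subtraction. Among these 96 pairs, BOLA2-SMG1P6 and P2RX5-TAX1BP3 had a higher count than A and B together in at least 1 of replicates 2 to 4, which leaves a difference below 0. These values were not a test of how reads were assigned.

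**Figure D4:**
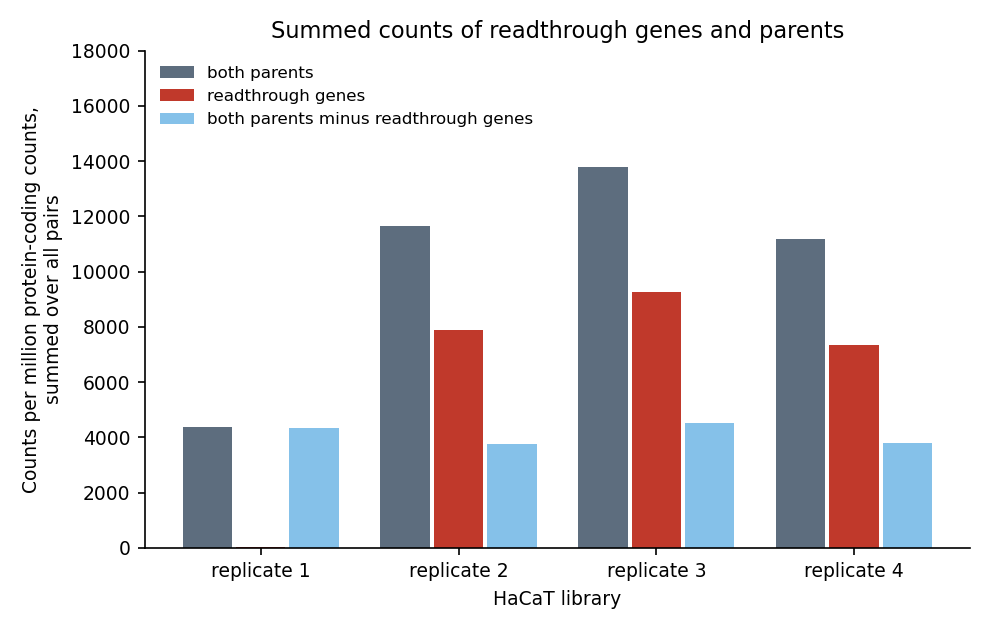
Coding CPM, summed over the 127 pairs, for both parents, for the readthrough genes and for the parents minus the readthrough genes, with 1 set of bars per replicate. The parents' bar of replicate 1 (4374) is under those of replicates 2 to 4, the bar of its readthrough genes (33.8) is too low to see, and the bars of the difference lie between 3763 and 4529 in all 4 replicates.

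The position of the annotated junction went with the size of the difference in upstream parents. Among the 68 pairs with a junction shared with both parents, upstream parents with under 50% of their bases after the junction had a median log2 ratio of replicate 1 to the others of −1.47 (n = 19), and those with 50% or more had −0.16 (n = 38). Across these 57 genes, which share the same 4 libraries, the Spearman correlation between the percent of bases outside and the ratio was 0.38. Downstream parents with under 15% of their bases before the junction had a median of −3.10 (n = 30), and those with 15% or more −2.54 (n = 21), with a correlation of 0.26 over 51 genes. Both correlations were weak.

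Over replicates 2 to 4 the counts of readthrough genes followed those of their parents closely. There were 103 members with at least 20 counts in each of these libraries. The coefficient of variation of their TPM had a median of 21.1%, and that of the parents 25.1% for A and 25.1% for B. The ratio of the count of A-B to that of A and B varied by a median of 5.87%, less than the TPM of A-B in 93 of the 103. Where the same reads are counted on A-B and on a parent, this ratio is steady by construction. Whether they were so counted was not tested. Across the 127 pairs, CPM of A-B in replicates 2 to 4 gave Spearman correlations of 0.972 to 0.983 between libraries, and 0.285 to 0.319 between replicate 1 and each of them. The order of the members in replicate 1 was thus only loosely that of the other libraries, on counts that were mostly under 20. By type, the ratio of A-B to A and B had a median of 63.6% over 65 protein-coding members and 77.2% over 40 lncRNA members in replicates 2 to 4.

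The 5 pairs in which the readthrough gene moved most against its parents were RPL17-C18orf32, RPS10-NUDT3, TMX2-CTNND1, NME1-NME2 and URGCP-MRPS24, with ranges over replicates of 6.30, 5.64, 5.16, 5.14 and 4.79 in log2(TPM + 1). In each the extreme value was that of replicate 1. The 8 pairs with the highest mean share of length-corrected reads, among those with at least 100 counts in each replicate, were BOLA2-SMG1P6, SYS1-DBNDD2, MINOS1-NBL1, DYX1C1-CCPG1, RBM14-RBM4, BCL2L2-PABPN1, TMEM110-MUSTN1 and PALM2-AKAP2. BOLA2-SMG1P6 was the highest, with shares of 31.8%, 58.9%, 83.0% and 61.4%. MINOS1-NBL1, which joins a mitochondrial cristae protein to an antagonist of bone morphogenetic proteins, had 0.572%, 51.3%, 52.1% and 53.8%. DYX1C1-CCPG1, which ends in a receptor for autophagy of the endoplasmic reticulum, had 0%, 52.2%, 49.6% and 51.3%. TMEM110-MUSTN1, whose upstream parent encodes a regulator of calcium entry, had 3.37%, 46.9%, 50.6% and 45.5%. All 4 of these shares were lowest in replicate 1.

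A few members departed from the pattern. FKBP1A-SDCBP2, which begins in the prolyl isomerase that binds FK506, had 17, 231, 211 and 148 counts beside 6598, 5950, 7496 and 5246 for FKBP1A, 0.239%, 3.81%, 2.78% and 2.77% of its parents' sum. ZNF664-RFLNA, across the longest gap, had 0.236%, 4.46%, 2.36% and 2.11%. These members were low beside the summed count of their parents in every library. SDCBP2, the downstream parent of FKBP1A-SDCBP2, had 510, 113, 106 and 92 counts, fewer than FKBP1A-SDCBP2 in replicates 2 to 4. BOLA2-SMG1P6 had its highest count in replicate 1, 208, beside 121, 196 and 116, and SLX1A-SULT1A3 had 105, 28, 36 and 101, but neither was highest in replicate 1 in coding CPM. Both lie in duplicated segments of chromosome 16, where near-identical copies share reads, so their counts are uncertain. NEDD8-MDP1, which begins in a ubiquitin-like modifier, had 192, 640, 727 and 432 counts, and TEN1-CDK3, which begins in a telomere protein, had 96, 197, 270 and 228 counts with 0 for both parents in replicate 1. In TEN1-CDK3, replicate 1 thus had counts on the joined gene and none on its parents.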

How the data were processed

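RNA-seq of 4 untreated HaCaT libraries was analysed. The authors deposited raw counts per gene with gene length, type and position for each replicate, RPKM for replicates 1 and 2 and TPM for replicates 3 and 4. The submitters' processing notes name HISAT2, HISAT, TopHat2, Bowtie2 and hg19, without versions. The counting program, its handling of shared reads, strand, the annotation and the selection of RNA are not given in the sources used here. The deposited RPKM and TPM equalled values recomputed from the counts and lengths, so TPM was computed for all 4 replicates with Python 3.11.15, pandas 2.3.3, NumPy 2.4.6 and SciPy 1.17.1. A pseudocount of 1 was added on the log2 scale, which understates differences of low genes, and 3 counts or fewer were taken as the limit of detection. Replicates have no comparison group, so counts of pairs, medians, mean ± SD and 95% Clopper-Pearson intervals are given. The intervals cover counting error only, as PCR copies of a molecule cannot be recognised. They also take each read as counted on 1 of the 3 genes, which is not known here.

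Members and role lists were chosen with earlier results of these data known. Named members were the 12 highest by mean TPM, the 8 highest by share among pairs with 100 counts in each replicate, the 5 with the widest range, any above both parents in 4 of 4, and up to 4 per role list. One of them is not reported here. Others named were chosen after their values were seen, as were the scaling to protein-coding counts (coding CPM), the 10-fold limit, the subtraction of A-B and the split by junction. Alternatives were CPM without length correction, leaving out each replicate, pairs without an overlapping further gene, a pseudocount of 0.1 and other limits on counts and TPM. The script was tested on simulated data. Junction sequences are from GENCODE 29 on GRCh38, and no coordinates were converted between builds.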

Additional observations from a re-analysis of the deposited data

Results flagged for a closer look

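Values of 34 sets of 4 replicates (medians over pairs and TPM of named members) were searched for a library far from the other 3, by Dixon's ratio of the gap to the whole range against its 95% critical value for 4 samples. Chance flags about 1 in 20 sets that are independent and chosen beforehand, or 1.7 of 34. In 7 sets the ratio was above it, and in all 7 the distant library was replicate 1. They were the median of log2(TPM + 1) of A-B minus A (0.947), the median of A-B minus B (0.858), the median share of A-B in the length-corrected reads of the 3 genes (0.955), and the TPM of ATP6V1G2-DDX39B (0.830), BCL2L2-PABPN1 (0.930), RBM14-RBM4 (0.834) and CHURC1-FNTB (0.871). These sets share their libraries and are not independent, and the members in them were named partly from these same values. Replicate 1 was already known to be low in members, so the 7 cannot be measured against 1.7. In each of the other named members searched, replicate 1 was also lowest, but replicates 2 to 4 spread too far for the ratio to pass.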

How the results depend on the processing

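No paired analysis was possible because the study has 1 group, so replicate numbers pair no samples. Without replicate 1, the median of log2(TPM + 1) of A-B minus A turned from −0.33 to 0.026 and that of A-B minus B from −0.00 to 0.079, and the number of readthrough genes with more than 3 counts in every replicate kept rose from 64 to 116. Leaving out each replicate in turn gave −0.47 to 0.026, −0.036 to 0.079 and 64 to 116 for these, 109 to 110 members with a mean TPM above 1, 3 to 4 below both parents, 57 to 59 pairs with A above B, and shares of 22.3% to 34.0%. Counts without length correction put 6 members below both parents in place of 2. The 35 pairs without an overlapping further gene, a smaller set by construction, gave 29 with a mean TPM above 1, 17 with more than 3 counts in 4 of 4 replicates, 0 below both parents and 15 of 31 with A above B. A pseudocount of 0.1 gave −0.84 for A-B minus A and −0.21 for A-B minus B, CPM without length correction gave −0.55 for A-B minus A, pairs with at least 100 counts gave −0.54, and a limit of more than 10 counts gave 37 members. Most members had under 20 counts in replicate 1, which limits the precision of their values there.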
